A study of Mus musculus with 4 samples.

Results

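Drd3 nuclei were GABAergic neuron nuclei of the mouse posterior substantia innominata, a basal forebrain region, that held transcripts of the dopamine D3 receptor gene. They were chosen nucleus by nucleus from droplet single-nucleus RNA sequencing, in which each captured transcript is counted once through its unique molecular identifier (UMI). A nucleus was taken when it had 500 to 8000 genes detected, under 5% of its UMIs from mitochondrially encoded genes, at least 2 UMIs of Drd3 and at least 1 UMI of Gad1 and Gad2 together. It also had to hold 0 UMIs of Slc17a6 and Slc17a7, the vesicular glutamate transporter genes, and at least 2 UMIs of the neuronal genes Syt1, Snap25 and Rbfox3 together. Of 38907 nuclei within the gene and mitochondrial limits, 340 were Drd3 nuclei: the male libraries gave 147 and 119, and the female libraries 30 and 44. They were set against 16301 other GABAergic nuclei, which held at least 2 UMIs of Gad1 and Gad2 together and numbered 4843 and 4701 in male libraries, with 3556 and 3201 in female ones. The limits on Slc17a6, Slc17a7 and the neuronal genes were not applied to these other nuclei. At least 1 Drd3 UMI was held by 226 and 223 of them in male libraries and by 84 and 74 in female ones. Both groups carried no introduced allele or treatment. All tissue came from wild-type mice aged 8 weeks, 2 libraries from males and 2 from females, with the females described as age-matched controls and sex differences in the neurons as the stated aim. The labels leave unsaid whether 2 libraries of 1 sex were taken from different mice. The p-values below therefore set differences against the scatter among 4 libraries, part of which may be technical. In the comparison with other GABAergic nuclei, and in the test of whether that difference changed with sex, the scatter was in effect pooled over genes. A gene's own unevenness between libraries thus hardly entered its p-value there, so a very small p-value does not show that a gene was even.

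Dopamine receptors fall into a D1-like family, which stimulates adenylyl cyclase, and a D2-like family, which inhibits it. Drd3 encodes a D2-like receptor with high affinity for dopamine, and in rodents it is best known from the ventral striatum, above all the islands of Calleja, where many of its neurons are GABAergic. Of the other markers proposed for these nuclei, Dnah5 encodes a dynein heavy chain of motile cilia, and Vipr2 encodes VPAC2, a receptor for the peptides VIP and PACAP.

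The deposited matrices held 158132452 and 144035342 UMIs in the male libraries and 53098268 and 53679351 UMIs in the female libraries. The males had been processed with another software version than the females, so depth and software changed together with sex and cannot be told apart from it. The female libraries also differed from each other in software version. Their Drd3 nuclei had median mitochondrial shares of 0.0247% in female 1 and 0.2492% in female 2, against 0.0104% in male 1 and 0.0074% in male 2. Male 1 and male 2 shared 23 cell barcodes, female 1 and female 2 shared 35, and 0 were shared between the sexes. The barcodes thus also changed with sex and cannot be told apart from it. Which Chromium version each library used is not given, so its part was not tested. Drd3 nuclei were deeper than other GABAergic nuclei in every library. The medians were 16539 and 14945 UMIs for male and 6927 and 11665 UMIs for female Drd3 nuclei, against 13281 and 12914 UMIs in other GABAergic nuclei of the males and 5942 and 6437 UMIs in those of the females. Summed over nuclei, the Drd3 nuclei held 2836726, 2222419, 269330 and 668062 UMIs. Values below are CPM, the UMIs of a gene per 1000000 UMIs of such a sum, scaled by the TMM method within each comparison, so that a gene's CPM in Drd3 nuclei shifts slightly between comparisons. Runs of 4 values follow the order male 1, male 2, female 1, female 2. A difference between sums cannot tell fewer nuclei with a transcript from fewer transcripts per nucleus.

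The label was checked first, with no test, because these genes chose or proposed the nuclei. Drd3 (chromosome 16, 43754026 to 43822932, GRCm38) stood at 172, 157, 310 and 189 CPM in Drd3 nuclei, against 3.71, 4.10, 3.77 and 2.92 CPM in other GABAergic nuclei. Dnah5 (chromosome 15, 28203752 to 28472052) stood at 118, 140, 72.8 and 144 CPM in Drd3 nuclei, against 22.0, 21.6, 12.5 and 10.97 CPM in other GABAergic nuclei. Vipr2 (chromosome 12, 116077726 to 116146261) stood at 48.8, 85.3, 40.1 and 61.1 CPM in Drd3 nuclei, against 7.99, 7.54, 5.15 and 3.49 CPM in other GABAergic nuclei. Both markers were therefore higher in the Drd3 nuclei of all 4 libraries, and the groups did not overlap. They did not mark every Drd3 nucleus, however. At least 1 UMI of Dnah5 or Vipr2 was seen in 63 of 147, 58 of 119, 8 of 30 and 16 of 44 Drd3 nuclei, which is 42.9%, 48.7%, 26.7% and 36.4%, against 17.5%, 15.2%, 6.02% and 6.31% of other GABAergic nuclei. Oligodendrocyte nuclei, which should lack both genes, gave 1.16%, 1.36%, 0.789% and 1.42% at medians of 2141, 2080, 1793 and 1454 UMIs. The vesicular GABA transporter gene Slc32a1, which the rule did not use, stood at 32.8, 39.6, 0 and 35.9 CPM in Drd3 nuclei, unscaled, against 38.4, 41.2, 14.9 and 57.3 CPM in other GABAergic nuclei.

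The threshold cut through a graded distribution of Drd3 counts. Exactly 2 Drd3 UMIs were held by 81, 68, 21 and 21 of the Drd3 nuclei, 3 or more by 66, 51, 9 and 23, and the highest counts were 10, 9, 8 and 8. Just outside, 177, 177, 102 and 88 nuclei met every other part of the rule with exactly 1 Drd3 UMI. Dnah5 or Vipr2 was seen in 37.0%, 36.8%, 14.3% and 38.1% of the nuclei with exactly 2 Drd3 UMIs and in 29.4%, 20.9%, 11.8% and 17.05% of those with exactly 1. Ano2 stood at 67.7, 78.5, 64.5 and 82.5 CPM, unscaled, just inside the threshold and at 73.3, 53.3, 57.9 and 34.1 CPM just outside it.

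To find which genes set Drd3 nuclei apart, their UMI sums were compared with those of other GABAergic nuclei of the same library in edgeR, with library as a block. Of 17251 genes tested, 604 (3.5%) were higher and 754 (4.37%) lower in Drd3 nuclei at an adjusted p under 0.05, which is 7.87% together, and 158 (0.916%) and 112 (0.649%) of these differed by at least 2-fold. Every Drd3 sum lay above every other sum for 1.94% of the genes and below for 4.59%. Across the genes tested the median log2 fold was -0.08. Among genes at 20 CPM or more in the higher group and on 1 side in all 4 libraries, predicted genes left out, those with the largest folds encode an adhesion receptor, a chloride channel, an opioid peptide precursor and cytoskeletal regulators on the higher side, and a glycine receptor subunit, a neuropeptide receptor, reelin and nuclear receptor or homeobox transcription factors on the lower side. With median-ratio scaling the calls were 745 higher and 489 lower, and with DESeq2 409 and 187, so the balance of higher against lower calls depends on the scaling. The balance also turned with TMM scaling kept. It was 731 higher and 490 lower without female 1, 687 and 522 without female 2, and 582 and 499 with nuclei matched on UMIs. Leaving out male 1 gave 656 calls and leaving out male 2 gave 667, against 1358 with all libraries. Holding the other nuclei to the remaining limits of the rule and to 0 Drd3 UMIs gave 1357 calls.

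**Figure D1:**
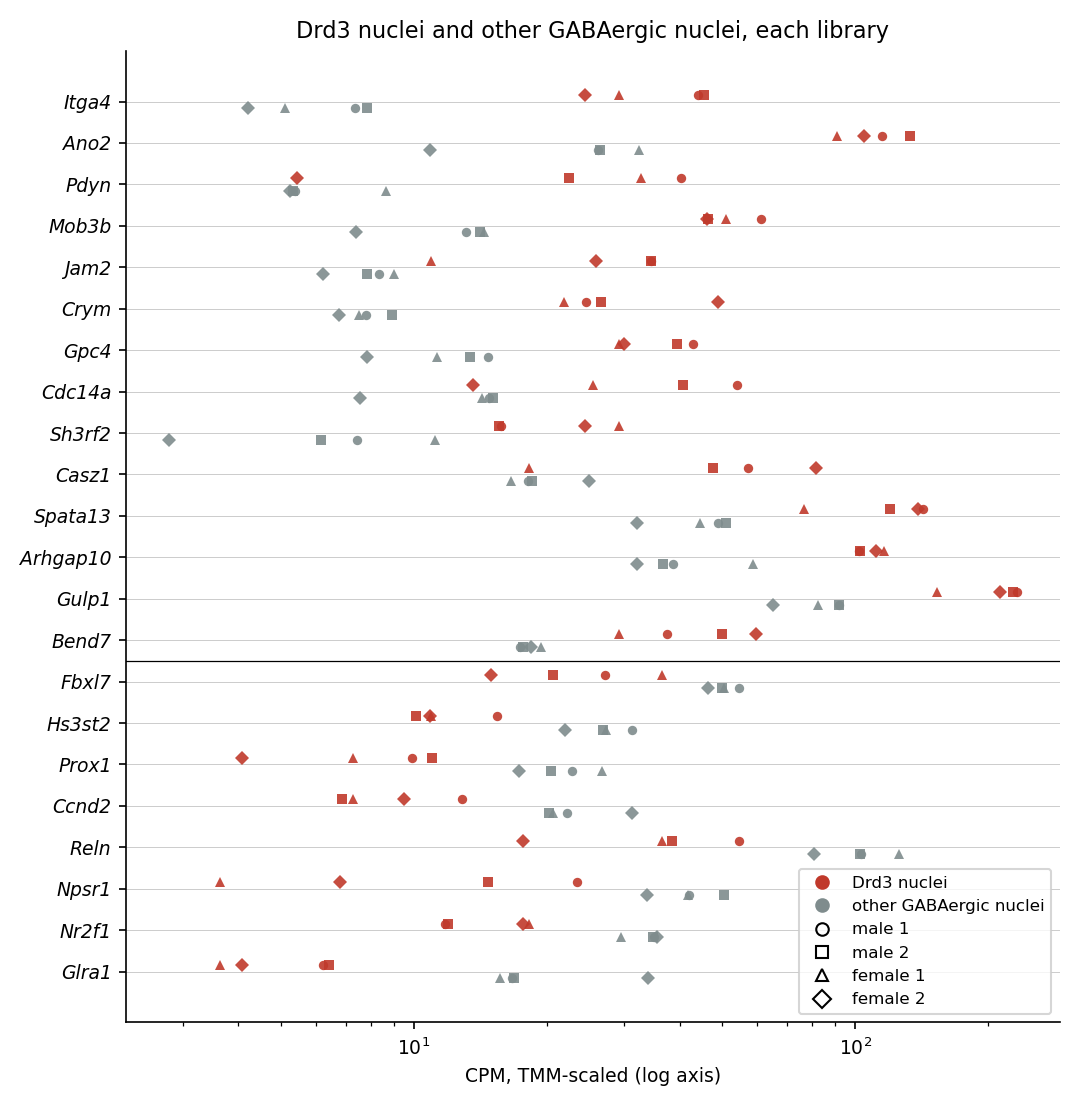
CPM (log axis) of the 14 highest and the 8 lowest folds among genes at 20 CPM or more in the higher group that lay on 1 side in all 4 libraries, predicted genes left out, for Drd3 nuclei (red) and other GABAergic nuclei (grey), with a marker shape for each library. For 19 of these 22 genes every Drd3 value lies on 1 side of every other GABAergic value, and Pdyn, Cdc14a and Casz1 overlap.

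Itga4, the integrin alpha 4 subunit that binds VCAM1 and fibronectin, had the highest fold among genes of that level. It stood at 44.0, 45.4, 29.1 and 24.4 CPM in Drd3 nuclei, against 7.37, 7.84, 5.10 and 4.20 CPM in other GABAergic nuclei. Every Drd3 sum was thus above every other sum, with the males higher than the females within the Drd3 nuclei. The log2 fold was 2.55 ± 0.18 (SE), a 5.86-fold difference (edgeR, Benjamini-Hochberg adjusted p = 3.22e-44), higher in 4 of 4 libraries. Itga4 lies on chromosome 2 (79255426 to 79333123, plus strand).

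Ano2, a calcium-activated chloride channel first known from olfactory neurons, averaged 111 ± 17.9 CPM in Drd3 nuclei and 24.0 ± 9.19 CPM in other GABAergic nuclei (SD, n = 4 libraries each). Its values were 115, 133, 91.0 and 105 CPM in Drd3 nuclei, against 26.1, 26.4, 32.4 and 10.9 CPM in other GABAergic nuclei. No library came near an overlap, and the log2 fold was 2.32 ± 0.10 (edgeR adjusted p = 7.99e-111). The gene lies on chromosome 6 (125690419 to 126040126, plus strand).

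Pdyn, the precursor of the dynorphin opioid peptides, was less even. It stood at 40.3, 22.5, 32.8 and 5.43 CPM in Drd3 nuclei, against 5.38, 5.32, 8.66 and 5.23 CPM in other GABAergic nuclei. Female 2 was barely above its own reference, on 4 UMIs, so the groups overlapped, whereas the other 3 libraries stood well above it. The log2 fold was 2.23 ± 0.20 (edgeR adjusted p = 1.50e-26).

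Mob3b, a member of the MOB family of kinase regulators, stood at 61.2, 46.3, 51.0 and 46.2 CPM in Drd3 nuclei, against 13.1, 14.1, 14.4 and 7.41 CPM in other GABAergic nuclei. All 4 Drd3 sums were far above every other sum, and the log2 fold was 2.07 ± 0.14. Jam2, a junctional adhesion molecule, stood at 34.5, 34.4, 10.9 and 25.8 CPM in Drd3 nuclei, against 8.31, 7.84, 8.996 and 6.23 CPM in other GABAergic nuclei, where female 1 was close to the reference on 3 UMIs. Crym, which encodes the thyroid hormone binding protein mu-crystallin, stood at 24.6, 26.6, 21.8 and 48.9 CPM in Drd3 nuclei, against 7.78, 8.90, 7.49 and 6.77 CPM in other GABAergic nuclei, with female 2 highest. The log2 folds of Jam2 and Crym were 1.98 ± 0.18 and 1.88 ± 0.18 (edgeR adjusted p = 1.02e-25 and 3.32e-22), and neither gene overlapped.

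Among regulators of the actin cytoskeleton and small GTPases, Spata13, a guanine nucleotide exchange factor, averaged 119 ± 30.2 CPM in Drd3 nuclei and 44.1 ± 8.41 CPM in other GABAergic nuclei. Arhgap10, a GTPase-activating protein, averaged 108 ± 6.93 CPM in Drd3 nuclei and 41.6 ± 11.8 CPM in other GABAergic nuclei. Gulp1, an engulfment adaptor, averaged 207 ± 37.0 CPM in Drd3 nuclei and 82.9 ± 12.6 CPM in other GABAergic nuclei (SD, n = 4 libraries each for all 3). In all 3 the groups did not overlap, and the log2 folds were 1.49, 1.46 and 1.36. The remaining genes on the higher side were Gpc4, a glypican of the cell surface, Cdc14a, a dual-specificity phosphatase, Sh3rf2, Bend7 and Casz1, a zinc finger transcription factor, with log2 folds between 1.33 and 1.59. Casz1 was uneven and overlapped, with 57.2, 47.7, 18.2 and 81.5 CPM in Drd3 nuclei, against 18.1, 18.6, 16.6 and 24.9 CPM in other GABAergic nuclei.

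On the lower side, Glra1, the alpha 1 subunit of the glycine receptor, stood at 6.23, 6.42, 3.64 and 4.07 CPM in Drd3 nuclei, against 16.7, 16.8, 15.7 and 33.9 CPM in other GABAergic nuclei. Its log2 fold was -1.68 ± 0.23 (edgeR adjusted p = 6.66e-11). Npsr1, the neuropeptide S receptor, stood at 23.5, 14.7, 3.64 and 6.79 CPM in Drd3 nuclei, against 41.9, 50.3, 41.8 and 33.7 CPM in other GABAergic nuclei. Here the groups did not overlap although the 2 male Drd3 sums were well above the female ones, and the log2 fold was -1.39 ± 0.15. Reln, the secreted guidance protein reelin, stood at 54.6, 38.5, 36.4 and 17.6 CPM in Drd3 nuclei, against 103, 103, 126 and 80.8 CPM in other GABAergic nuclei, a log2 fold of -1.29 ± 0.11. The orphan nuclear receptor Nr2f1, also called COUP-TFI, averaged 14.9 ± 3.53 CPM in Drd3 nuclei and 33.7 ± 2.88 CPM in other GABAergic nuclei. Prox1, a homeobox factor of interneurons from the caudal ganglionic eminence, averaged 8.07 ± 3.09 CPM in Drd3 nuclei and 21.8 ± 3.95 CPM in other GABAergic nuclei (SD, n = 4 libraries each). The remaining genes shown on the lower side were Ccnd2, a D-type cyclin, Hs3st2, a heparan sulfate 3-O-sulfotransferase, and Fbxl7, an F-box protein, with log2 folds of -1.20, -1.16 and -1.13. None of these 8 genes overlapped between the groups.

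**Figure D2:**
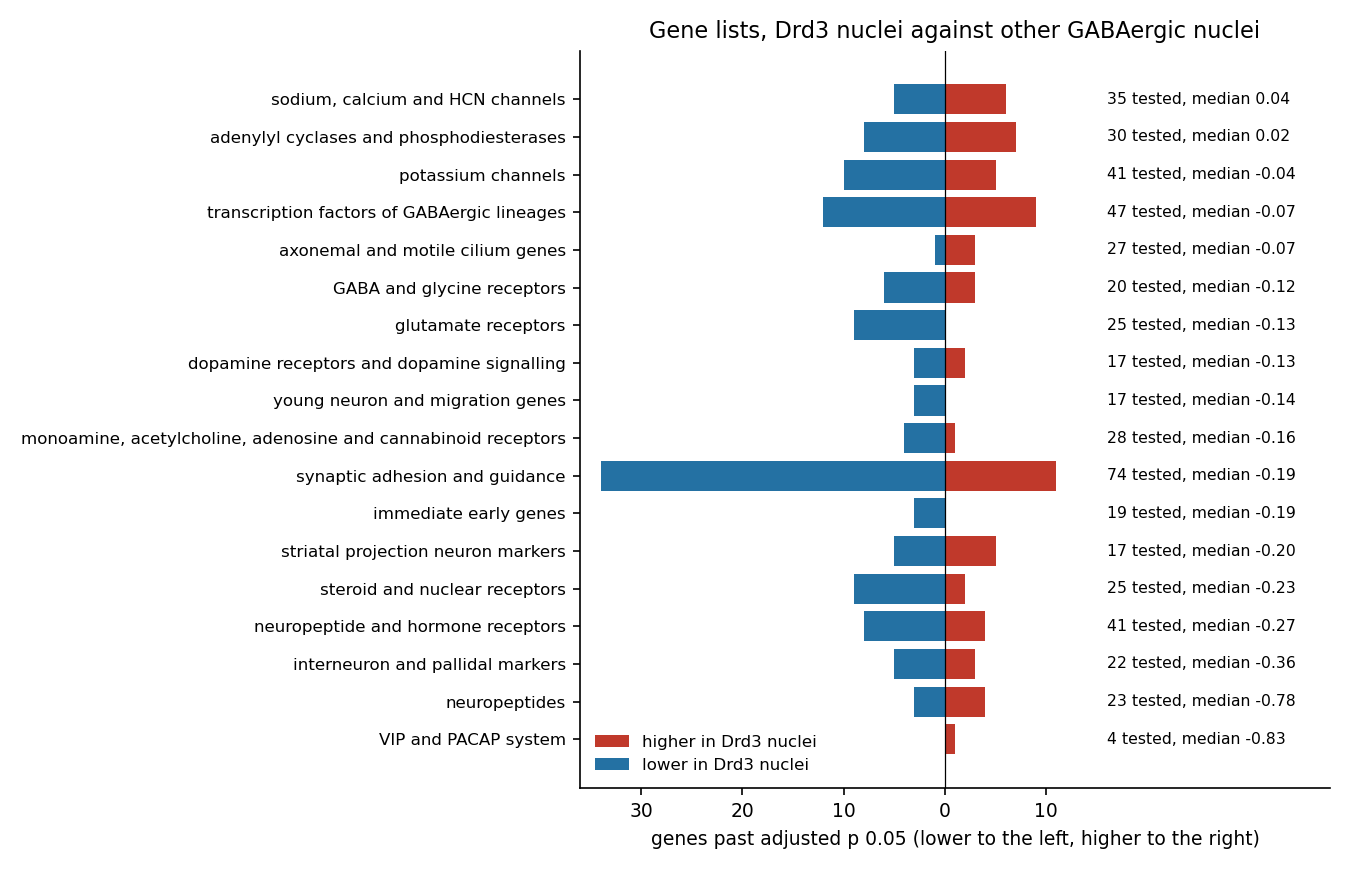
Number of genes in each list that were lower (blue, left) or higher (red, right) in Drd3 nuclei than in other GABAergic nuclei at an adjusted p under 0.05, with the genes tested and their median log2 fold. The adhesion and guidance list holds the most calls, 34 lower and 11 higher.

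Of the 19 dopamine receptor and signalling genes measured, 17 were tested, 2 rose and 3 fell, where 3.5% of all genes tested rose and 4.37% fell, and their median log2 fold was -0.13, against -0.08 over all genes. Ppp1r1b, which encodes the dopamine-regulated phosphatase inhibitor DARPP-32, stood at 12.8, 14.7, 10.9 and 6.79 CPM in Drd3 nuclei, against 4.89, 5.39, 10.7 and 3.81 CPM in other GABAergic nuclei. It rose by a log2 fold of 1.23 ± 0.25 (edgeR adjusted p = 2.63e-05), with female 1 nearly level, on 3 UMIs. Drd2 stood at 7.33, 5.96, 21.8 and 5.43 CPM in Drd3 nuclei, against 18.04, 17.4, 27.4 and 14.9 CPM in other GABAergic nuclei. It was lower in 4 of 4 libraries by a log2 fold of -1.28 ± 0.23 (edgeR adjusted p = 7.19e-07), although female 1 overlapped the reference values. Drd1 stood at 11.7, 13.8, 3.64 and 4.07 CPM in Drd3 nuclei, against 15.9, 14.8, 11.2 and 16.3 CPM in other GABAergic nuclei, and did not pass (log2 fold -0.49 ± 0.21, edgeR adjusted p = 0.156). A Drd1 UMI was seen in 22, 22, 1 and 2 of the Drd3 nuclei, 15.0%, 18.5%, 3.33% and 4.55%, against 16.7%, 15.1%, 6.66% and 10.9% of other GABAergic nuclei and 1.74%, 0.868%, 1.08% and 0.976% of oligodendrocyte nuclei at the shallower depths given above. Drd4 was listed at 0 in all 4 Drd3 sums and Drd5 had at most 1.36 CPM there, and neither was tested. Pde10a, the phosphodiesterase enriched in striatal projection neurons, fell by 0.49 on the log2 scale, the G protein subunit gene Gng7 rose by 0.30, and the cyclase Adcy5 did not pass.

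Among striatal projection neuron markers, 5 of 17 rose and 5 fell, against 3.5% and 4.37% of all genes tested. DESeq2 called 5 and 2. The transcription factor Bcl11b, also called CTIP2, stood at 216, 207, 171 and 293 CPM in Drd3 nuclei, against 128, 133, 156 and 130 CPM in other GABAergic nuclei, and did not overlap (log2 fold 0.75 ± 0.08, edgeR adjusted p = 1.95e-18). Meis2, a homeobox factor of the lateral ganglionic eminence, rose by a log2 fold of 0.61, with 1247, 1159, 1351 and 665 CPM in Drd3 nuclei, against 733, 713, 927 and 511 CPM in other GABAergic nuclei. Penk, the enkephalin precursor, fell by 0.95 on the log2 scale, and Isl1, a LIM homeobox factor of D1-type neurons, fell by 0.77. Pdyn, described above, and Ebf1 rose.

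Transcription factors of GABAergic lineages had 9 of 47 higher and 12 lower, beside the 3.5% and 4.37% over all genes, and the balance turned with median-ratio scaling, to 12 higher and 9 lower. The largest rise was that of Tox, an HMG box factor, with 418, 457, 401 and 269 CPM in Drd3 nuclei, against 189, 198, 203 and 139 CPM in other GABAergic nuclei (log2 fold 1.10 ± 0.08, edgeR adjusted p = 2.18e-44). All 4 Drd3 sums were above every other sum. Meis1 (0.74), Tshz1 (0.71), Tox3 (0.67) and Tshz2 (0.58) also rose. Maf and Dlx1 were among those that fell, with log2 folds of -1.45 and -1.29. Maf, a factor of interneurons from the medial ganglionic eminence, stood at 5.13, 5.96, 14.6 and 8.15 CPM in Drd3 nuclei, against 16.0, 16.9, 20.8 and 21.7 CPM in other GABAergic nuclei. Foxp2 did not pass, with 331, 345, 215 and 147 CPM in Drd3 nuclei, against 275, 265, 288 and 149 CPM in other GABAergic nuclei (log2 fold 0.16 ± 0.08, edgeR adjusted p = 0.271).

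Neuropeptide genes had 4 of 23 tested higher and 3 lower, where all genes gave 3.5% and 4.37%. Their median log2 fold was -0.78, against -0.08 over all genes, and -0.07 over the 15 tested when nuclei were matched on UMIs. Beside Pdyn, the neurotensin precursor Nts stood at 33.4, 24.8, 40.1 and 29.9 CPM in Drd3 nuclei, against 12.02, 10.99, 6.19 and 17.7 CPM in other GABAergic nuclei (log2 fold 1.32 ± 0.17, edgeR adjusted p = 3.32e-13). Its groups did not overlap. The somatostatin precursor Sst rose by a log2 fold of 1.16 and Tac2, the neurokinin B precursor, by 0.83, but both overlapped. Sst stood at 44.0, 33.5, 10.9 and 43.4 CPM in Drd3 nuclei, against 14.6, 13.8, 7.95 and 34.8 CPM in other GABAergic nuclei. Tac2 stood at 18.3, 32.1, 25.5 and 27.2 CPM in Drd3 nuclei, against 10.2, 11.2, 11.1 and 36.5 CPM in other GABAergic nuclei, so it was lower in the Drd3 nuclei of female 2. Penk and the neurexophilins Nxph1 and Nxph2 fell.

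Receptors for peptides and hormones had 4 of 41 tested higher and 8 lower, beside 3.5% and 4.37% over all genes. Vipr1, which encodes VPAC1, the other receptor shared by VIP and PACAP, stood at 13.6, 10.1, 14.6 and 8.15 CPM in Drd3 nuclei, against 5.43, 4.88, 9.12 and 4.63 CPM in other GABAergic nuclei (log2 fold 1.10 ± 0.25, edgeR adjusted p = 0.000435). It was higher in 4 of 4 libraries, although the lowest Drd3 value fell below the highest other value. In the VIP and PACAP list it was the 1 gene of 4 tested that passed. The peptide genes themselves, Vip and Adcyap1, had at most 0.917 and 0.733 CPM in any Drd3 sum, and Adcyap1r1, the PACAP-selective receptor gene, did not pass (log2 fold -0.39 ± 0.14, edgeR adjusted p = 0.0605). Ghr, the growth hormone receptor gene, stood at 379, 391, 299 and 314 CPM in Drd3 nuclei, against 201, 202, 193 and 151 CPM in other GABAergic nuclei, without overlap (log2 fold 0.92 ± 0.08). The receptor genes Calcr, for calcitonin and amylin, and Rxfp2, for the relaxin-family peptide INSL3, fell by 2.89 and 2.41 on the log2 scale. Rxfp2 stood at 1.83, 3.21, 0 and 8.15 CPM in Drd3 nuclei, against 15.0, 15.9, 13.9 and 23.3 CPM in other GABAergic nuclei. Crhr2 and the mu opioid receptor gene Oprm1 also fell, by 1.52 and 0.63.

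Steroid and other nuclear receptor genes had 2 of 25 higher and 9 lower, beside 3.5% and 4.37% over all genes, and with median-ratio scaling 2 and 8. Esr1, the estrogen receptor alpha gene, stood at 17.2, 12.8, 7.28 and 10.9 CPM in Drd3 nuclei, against 28.5, 27.2, 26.4 and 29.99 CPM in other GABAergic nuclei (log2 fold -0.99 ± 0.17, edgeR adjusted p = 5.85e-07). It did not overlap between the groups. Esr2 and the aromatase gene Cyp19a1 fell by 1.22 and 1.58, and Nr2f2, the partner of Nr2f1, by 1.24. The 2 that rose were Vdr, the vitamin D receptor gene, on 5.96 to 9.50 CPM in Drd3 nuclei, against 3.22 to 4.18 CPM in other GABAergic nuclei, and Nr3c2, the mineralocorticoid receptor gene, with a log2 fold of 0.31. Vdr had a log2 fold of 1.08 ± 0.32, which turned to -0.09 when Drd3 nuclei were limited to those with 3 or more Drd3 UMIs.

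For receptors of fast transmission, 3 of 20 GABA and glycine receptor genes rose and 6 fell, and 0 of 25 glutamate receptor genes rose and 9 fell, against 3.5% and 4.37% of all genes tested. With median-ratio scaling 2 glutamate receptor genes rose and 6 fell. The glycine receptor subunits moved apart: Glra2 rose by a log2 fold of 0.58, with 180, 171, 142 and 125 CPM in Drd3 nuclei, against 116, 120, 96.1 and 83.3 CPM in other GABAergic nuclei, whereas Glra1, Glra3 and Glrb fell. Gabra4 rose by 0.53 and Gabra2 by 0.24, and Gabbr2 fell by 0.47. The metabotropic glutamate receptor gene Grm8 and the NMDA receptor subunit gene Grin3a had the largest falls of the glutamate list, with log2 folds of -0.60 and -0.58. Of 28 receptor genes for monoamines, acetylcholine, adenosine and cannabinoids, 1 rose and 4 fell, and DESeq2 called 1 and 1. Cnr1, the cannabinoid CB1 receptor gene, rose by 0.38. Chrm3, the muscarinic M3 receptor gene, stood at 261, 266, 240 and 364 CPM in Drd3 nuclei, against 483, 468, 602 and 552 CPM in other GABAergic nuclei (log2 fold -0.85 ± 0.08), and the serotonin receptor genes Htr1b, Htr2a and Htr4 fell.

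Potassium channel genes had 5 of 41 higher and 10 lower, and 7 and 6 with median-ratio scaling, where all genes gave 3.5% and 4.37%. Kcnc2, a Kv3 subunit of fast-spiking neurons, stood at 806, 778, 757 and 782 CPM in Drd3 nuclei, against 476, 476, 487 and 466 CPM in other GABAergic nuclei, with hardly any spread in either group (log2 fold 0.72 ± 0.07, edgeR adjusted p = 8.33e-23). Kcnmb4, a regulatory subunit of BK channels, rose by 0.72, and Kcnh8 and Kcnk2 fell by 1.00 and 0.86. Among 35 sodium, calcium, HCN and related channel genes 6 rose and 5 fell, and 7 and 2 with median-ratio scaling or 7 and 1 in DESeq2. Trpc5, a cation channel of the TRPC family, stood at 427, 441, 288 and 466 CPM in Drd3 nuclei, against 223, 218, 184 and 201 CPM in other GABAergic nuclei, without overlap (log2 fold 0.99 ± 0.07, edgeR adjusted p = 6.97e-37). The T-type calcium channel gene Cacna1g fell by 1.07, with 28.6, 24.8, 18.2 and 27.2 CPM in Drd3 nuclei, against 51.6, 56.4, 62.4 and 61.1 CPM in other GABAergic nuclei. The calcium channel subunit gene Cacna2d1 rose by 0.62. Adenylyl cyclase, phosphodiesterase and protein kinase C genes had 7 of 30 higher and 8 lower, but 8 and 5 with median-ratio scaling, 5 and 2 in DESeq2 and 8 and 3 without female 1. Both lists stand beside the same 3.5% and 4.37% over all genes. In the cyclase and phosphodiesterase list 18 of the 30 log2 folds lay above 0, and the median was 0.019, against -0.08 over all genes. Among its falls, Pde5a, a cGMP phosphodiesterase at no more than 0.917 CPM in any Drd3 sum, fell by 2.55, the cyclase Adcy7 by 0.79 and Pde4b, a cAMP phosphodiesterase, by 0.52.

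The list of synaptic adhesion and axon guidance genes held the most calls, 11 of 74 higher and 34 lower, beside 3.5% and 4.37% over all genes. Its median log2 fold was -0.19, against -0.08 over all genes, and with median-ratio scaling 12 were higher and 25 lower. The semaphorin receptor gene Nrp1 stood at 186, 193, 186 and 159 CPM in Drd3 nuclei, against 94.5, 97.4, 88.2 and 74.1 CPM in other GABAergic nuclei (log2 fold 1.02 ± 0.08, edgeR adjusted p = 6.00e-31). Its ligand gene Sema3a rose by 0.91, with 213, 173, 98.3 and 160 CPM in Drd3 nuclei, against 99.6, 94.3, 95.8 and 79.5 CPM in other GABAergic nuclei. Nrp1 did not overlap between the groups, whereas Sema3a did, since female 1 was close to the reference. Sema6d rose by 0.88. The repulsive ligand gene Slit1 fell by 0.99, and the contactin-associated gene Cntnap5b fell by 0.88, with 265, 270, 218 and 338 CPM in Drd3 nuclei, against 488, 483, 590 and 515 CPM in other GABAergic nuclei.

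Of 32 axonemal and motile cilium genes measured 27 were tested, 3 rose, Dnah2, Dnah3 and Cfap44, and Dnah1 fell, which is 4 of 27 beside the 7.87% called over all genes. Dnah3 had the largest fold of these, at 4.40, 4.13, 3.64 and 9.50 CPM in Drd3 nuclei, against 1.23, 1.47, 5.44 and 1.99 CPM in other GABAergic nuclei (log2 fold 1.58 ± 0.40), and was lower in female 1. Foxj1, the master regulator of motile cilia, had at most 1.10 CPM in any Drd3 sum and did not pass. Of 17 young neuron and migration genes tested 0 rose and Sox11, Robo1 and St8sia4 fell, whereas 2 rose and 2 fell with median-ratio scaling. Of 19 immediate early genes 0 rose and Bdnf, Nr4a3 and Jun fell, and 0 passed with median-ratio scaling. Interneuron and pallidal markers had 3 of 22 higher, Sst, Lhx8 and Cnr1, and 5 lower, beside 3.5% and 4.37% over all genes, led by Moxd1 with a log2 fold of -1.95.

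For markers of other cell types, summed over 5 oligodendrocyte markers, Drd3 nuclei held 279 to 550 CPM and other GABAergic nuclei 318 to 625 CPM. The 4 astrocyte markers summed to 39.4 to 76.5 CPM in Drd3 nuclei and 44.3 to 82.8 CPM in other GABAergic nuclei, with 74.4 CPM in Drd3 nuclei of male 1 and 45.6 CPM in its other nuclei. The 4 microglia markers summed to 13.6 to 131 CPM in Drd3 nuclei and 31.9 to 114 CPM in other GABAergic nuclei. The 3 markers of oligodendrocyte precursors summed to 24.8 to 109 CPM in Drd3 nuclei and 34.1 to 51.8 CPM in other GABAergic nuclei, and the highest value was that of female 1. The 3 cholinergic markers summed to 4.07 to 47.3 CPM in Drd3 nuclei and 17.7 to 32.0 CPM in other GABAergic nuclei. The 4 vascular markers reached at most 10.9 CPM in Drd3 nuclei and 7.69 CPM in other GABAergic nuclei, and the 4 ependymal markers 3.64 CPM in Drd3 nuclei and 1.51 CPM in other GABAergic nuclei, with Ccdc153 at 0 in all Drd3 sums. The part of these marker levels in the results was not tested, other than by leaving out nuclei with glial markers. Nuclei with at least 5 UMIs of oligodendrocyte or of astrocyte markers made up 19.7%, 16.0%, 16.7% and 25.0% of Drd3 nuclei, against 15.2%, 15.8%, 13.0% and 11.996% of other GABAergic nuclei. Without them 1301 genes were called, and the 22 genes of the plot of CPM by library all kept their call and direction. Of the glial markers, the astrocyte transporter gene Slc1a3 passed with a log2 fold of 0.38, which turned to -0.19 without those nuclei, and P2ry12 of microglia passed at -0.52.

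**Figure D3:**
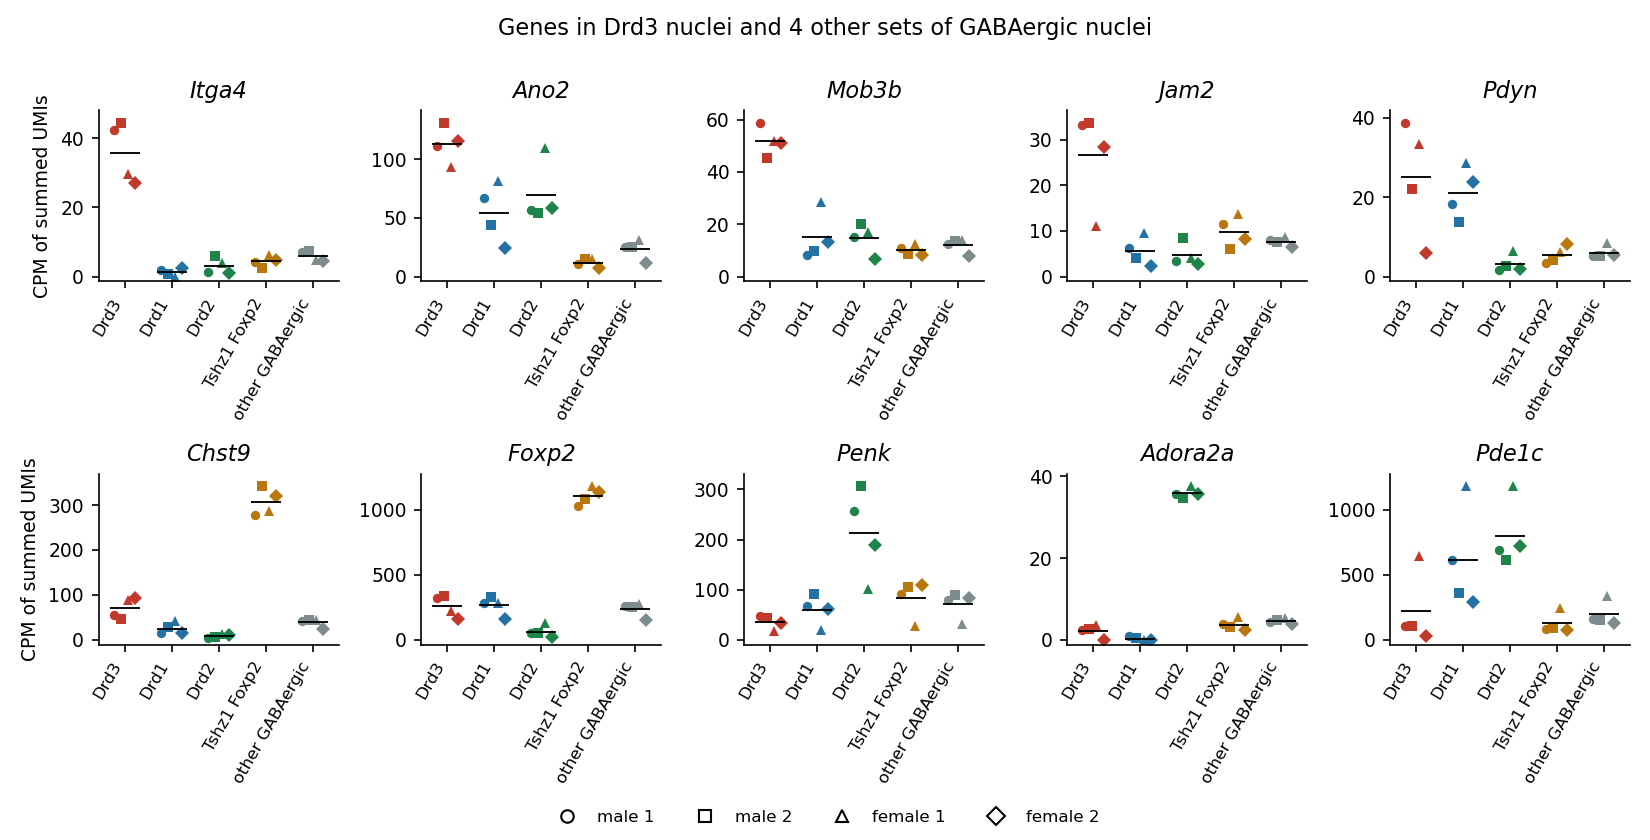
CPM of summed UMIs, not TMM-scaled, for 10 genes in Drd3 nuclei and in 4 other sets of GABAergic nuclei, with a point for each library and a line at the mean. Itga4 and Mob3b lie higher in Drd3 nuclei than in each other set, whereas Adora2a and Penk are highest in Drd2 nuclei and Chst9 and Foxp2 in Tshz1 Foxp2 nuclei.

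To place Drd3 nuclei among the dopamine receptor neurons of the region, they were compared with 447 Drd1 nuclei and 656 Drd2 nuclei, which met the same rule but for Drd3 and held at least 2 UMIs of 1 of these receptor genes and 0 of Drd3 and of the other. A further set, the 1086 Tshz1 Foxp2 nuclei, held at least 2 UMIs of each of these transcription factor genes and 0 of Drd3, and was kept apart from the Drd1 and Drd2 sets. These sets lie largely within the other GABAergic nuclei used above. These comparisons share the Drd3 sums, so their results are given side by side and not counted as separate evidence. Against Drd1 nuclei 310 genes of 11667 tested were higher (2.66%) and 221 lower (1.89%), 4.55% together. Against Drd2 nuclei 370 of 11959 were higher (3.09%) and 447 lower (3.74%), 6.83% together. Against Tshz1 Foxp2 nuclei 629 of 12409 were higher (5.07%) and 559 lower (4.5%), 9.57% together. DESeq2 called 287, 426 and 603 genes in the 3 comparisons. Without male 1 the edgeR calls were 228, 456 and 686, and without male 2 they were 186, 431 and 546, in both directions together.

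Among genes at 20 CPM or more in the higher group, chosen by the rule above, Itga4 had the highest fold in all 3. Drd1 nuclei held 1.97, 0.763, 0 and 2.35 CPM, against which the log2 fold of Drd3 nuclei was 4.72 ± 0.33 (edgeR adjusted p = 1.97e-07). Against Drd2 nuclei, at 1.48, 6.14, 4.40 and 0.893 CPM, it was 3.47 ± 0.27, and against Tshz1 Foxp2 nuclei, at 4.27, 2.70, 6.29 and 4.54 CPM, it was 3.40 ± 0.23. No Drd3 sum, at 24.4 CPM or more, came near these values.

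Beside Itga4, the highest folds at that level against Drd1 nuclei were those of Jam2 (2.62), Cdc14a (2.54), Shroom3 (2.39), Mob3b (2.27), Casz1 (2.19), Megf11 (2.04) and Pcsk6 (1.95). Pcsk6, a proprotein convertase, was even across libraries, at 49.0, 45.5, 49.2 and 46.4 CPM in Drd3 nuclei, against 10.5, 14.1, 9.86 and 12.9 CPM in Drd1 nuclei. Pdyn did not separate these sets, with a log2 fold of 0.55 that did not pass. Of 15 striatal projection neuron markers tested against Drd1 nuclei 0 rose and 6 fell, where 2.66% of all genes rose and 1.89% fell. Of 12 dopamine receptor and signalling genes tested 0 rose and 3 fell. Lower in Drd3 nuclei were Pde1c, a calcium-activated phosphodiesterase (-2.01), Rarb, a retinoic acid receptor of the striatum (-1.89), Prkch (-1.86), Col12a1 (-1.83) and Hs3st4 (-1.73). Rarb stood at 87.4, 65.1, 273 and 39.4 CPM in Drd3 nuclei, against 327, 280, 473 and 257 CPM in Drd1 nuclei, and Pde1c at 107, 107, 655 and 29.5 CPM in Drd3 nuclei, against 639, 375, 1223 and 289 CPM in Drd1 nuclei. For both, the female 1 Drd3 sum stood far above the other 3 and inside the range of the Drd1 nuclei.

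Against Drd2 nuclei the textbook genes of D2-type projection neurons were lower. Adora2a, an adenosine receptor gene, stood at 2.53, 2.72, 3.74 and 0 CPM in Drd3 nuclei, against 37.9, 35.6, 40.5 and 33.9 CPM in Drd2 nuclei (log2 fold -3.93 ± 0.28, edgeR adjusted p = 1.32e-09). Penk stood at 49.9, 44.0, 18.7 and 30.7 CPM in Drd3 nuclei, against 273, 315, 108 and 180 CPM in Drd2 nuclei (log2 fold -2.62 ± 0.11, edgeR adjusted p = 3.74e-13). Neither overlapped, and Rxfp2 (-3.42), Pde1c (-2.47) and Prkch (-2.16) were lower as well. Of 13 dopamine receptor and signalling genes tested, 9 fell and 0 rose, where 3.74% of all genes fell and 3.09% rose. Of 16 striatal projection neuron markers tested, 6 fell and 2 rose. Higher in Drd3 nuclei, after Itga4, were Pdyn (3.31), the sulfotransferase gene Chst9 (2.97), Jam2 (2.47), Gpc4 (2.45), Shroom3 (2.43), Casz1 (2.30) and Gulp1 (2.21). Chst9 stood at 56.0, 46.3, 89.7 and 87.9 CPM in Drd3 nuclei, against 5.62, 6.63, 14.1 and 10.7 CPM in Drd2 nuclei.

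Against Tshz1 Foxp2 nuclei Chst9 went the other way, with 56.9, 46.8, 92.2 and 88.8 CPM in Drd3 nuclei, against 289, 353, 290 and 307 CPM in Tshz1 Foxp2 nuclei (log2 fold -2.34 ± 0.14, edgeR adjusted p = 3.38e-10). Rai14, an actin-associated protein (-2.41), Fbxl7 (-2.22), Igfbpl1 (-2.16) and Adgrv1, an adhesion receptor (-1.96), were also lower. Striatal projection neuron markers had 4 of 15 tested higher and 4 lower than in Tshz1 Foxp2 nuclei, beside 5.07% and 4.5% over all genes. After Itga4, the highest folds were those of Ano2, Mob3b, Arhgap10, Lhx8, Sst, Tac2 and Morc4. Ano2 stood at 115, 134, 96.0 and 109 CPM in Drd3 nuclei, against 10.8, 15.3, 15.1 and 6.81 CPM in Tshz1 Foxp2 nuclei (log2 fold 3.25 ± 0.13, edgeR adjusted p = 9.83e-13). Lhx8, a LIM homeobox factor of neurons from the medial ganglionic eminence, stood at 20.2, 11.01, 7.68 and 50.7 CPM in Drd3 nuclei, against 4.42, 4.44, 5.66 and 3.40 CPM in Tshz1 Foxp2 nuclei, a log2 fold of 2.02 ± 0.30 to which female 2 contributed the highest value.

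**Figure D4:**
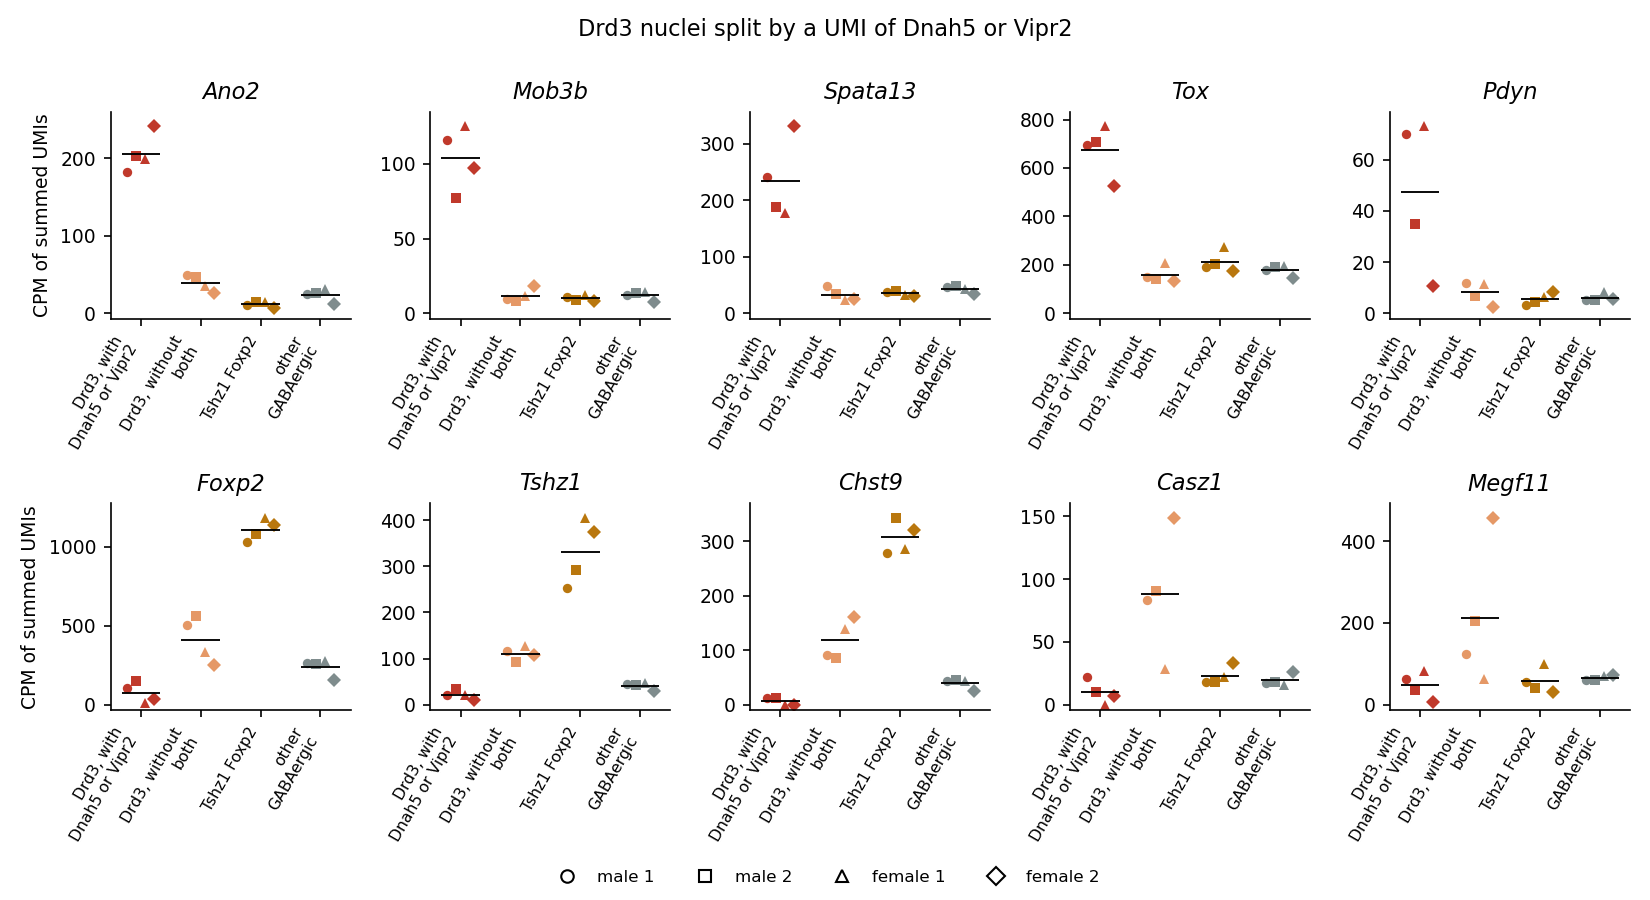
CPM of summed UMIs, not TMM-scaled, for 10 genes in Drd3 nuclei with a UMI of Dnah5 or Vipr2 (red), Drd3 nuclei without either (orange), Tshz1 Foxp2 nuclei and other GABAergic nuclei, with a point for each library and a line at the mean. In the upper row the Drd3 nuclei with a marker stand above those without in every library, and in the lower row those without it stand higher in all libraries for Foxp2, Tshz1, Chst9 and Casz1 and in 3 of 4 for Megf11.

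Drd3 nuclei were not uniform. They were split by whether they held a UMI of Dnah5 or Vipr2, as a description with no test, since the split uses the markers proposed for them and was made after the data had been seen. The 63, 58, 8 and 16 nuclei with a marker had median UMI counts of 17433, 17916, 8176 and 13609, and the 84, 61, 22 and 28 without had 15693, 13031, 5719 and 10227, so depth moved with the split and its part in it was not tested. Ano2 stood at 182, 202, 198 and 241 CPM, unscaled, in the nuclei with a marker, and at 49.1, 46.3, 34.6 and 25.7 CPM in those without. Mob3b stood at 116, 77.0, 125 and 97.0 CPM with a marker and at 9.82, 7.88, 11.5 and 17.96 CPM without, near the 12.5, 13.6, 14.004 and 7.75 CPM of other GABAergic nuclei. Tox stood at 695, 707, 772 and 525 CPM with a marker and at 151, 140, 208 and 133 CPM without. Much of the height of these genes in the Drd3 sums thus lay in the nuclei with a marker.

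Other genes lay on the other side of the split. Foxp2 stood at 105, 152, 10.4 and 35.9 CPM in the nuclei with a marker and at 502, 561, 334 and 251 CPM in those without, against 1031, 1082, 1181 and 1137 CPM in Tshz1 Foxp2 nuclei. Tshz1 stood at 22.1, 34.0, 20.9 and 10.8 CPM with a marker and at 117, 91.6, 127 and 108 CPM without. Chst9 stood at 13.0, 12.4, 0 and 0 CPM with a marker and at 90.4, 85.7, 138 and 162 CPM without. Casz1, which had risen in the Drd3 sums as a whole, stood at 22.1, 9.94, 0 and 7.19 CPM with a marker and at 83.2, 90.6, 28.8 and 149 CPM without, so its higher level lay in the nuclei without Dnah5 and Vipr2. Itga4 was less divided in 3 libraries and widely divided in female 2, at 54.2, 54.7, 20.9 and 61.1 CPM with a marker and 32.1, 32.5, 34.6 and 2.57 CPM without. Drd3 itself stood at 182, 162, 313 and 190 CPM with a marker and at 152, 144, 317 and 221 CPM without. Every nucleus on both sides was taken for holding at least 2 Drd3 UMIs, so these levels follow in part from the rule.

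**Figure D5:**
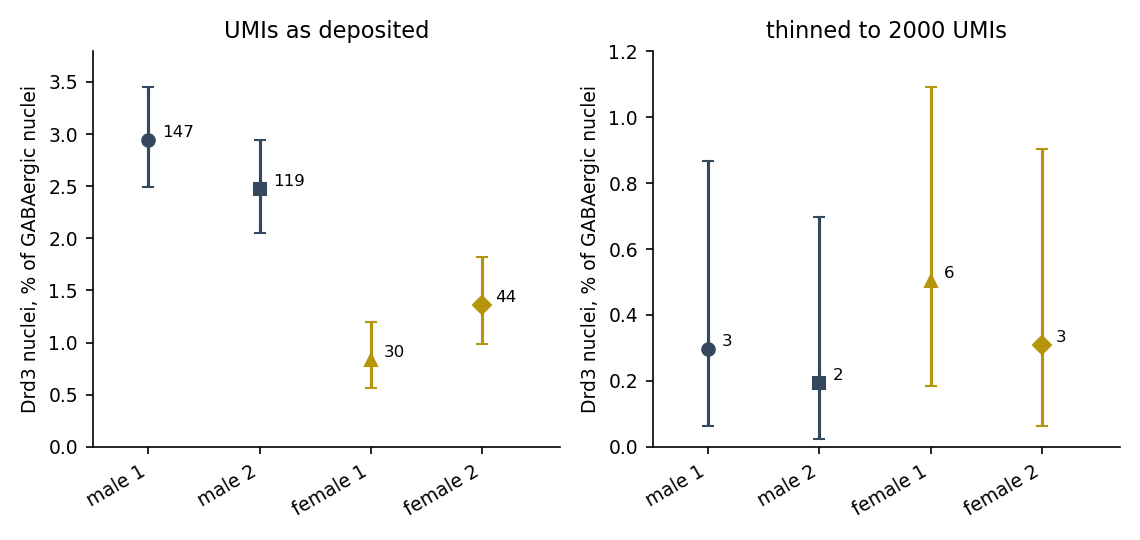
Drd3 nuclei as a percentage of GABAergic nuclei in each library, with exact 95% intervals and the number of Drd3 nuclei, for UMIs as deposited (left) and after thinning nuclei to 2000 UMIs, shallower nuclei left out (right). The male shares are higher on the left, at 2.95% and 2.47%, and lower on the right, at 0.298% and 0.193%.

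The stated aim was sex differences, and the first question was how common Drd3 nuclei were. They made up 2.95% (exact Clopper-Pearson 95% interval 2.49 to 3.45) of GABAergic nuclei in male 1 and 2.47% (2.05 to 2.95) in male 2, against 0.837% (0.565 to 1.19) in female 1 and 1.36% (0.987 to 1.82) in female 2. These intervals cover counting error only. The male mean of 2.71% was 1.61 percentage points above the female mean of 1.10%, a ratio of 2.47, with an exact two-sided permutation p of 0.3333, the smallest that 2 against 2 libraries allow. Male nuclei were also deeper, as the medians above show, and depth and sex cannot be told apart. Nuclei with at least 2000 UMIs were then thinned to 2000, and shallower nuclei were left out. The shares became 0.298% and 0.193% in males, against 0.503% and 0.310% in females, and the difference turned to -0.161 percentage points. These shares rested on 3, 2, 6 and 3 Drd3 nuclei among 1007, 1035, 1192 and 969 GABAergic nuclei. The exact 95% intervals after thinning overlapped, at 0.0615 to 0.868% and 0.0234 to 0.696% in males, against 0.185 to 1.09% and 0.0639 to 0.902% in females. A difference between the sexes in either direction was therefore not detectable at 2000 UMIs.

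Within Drd3 nuclei, 5 of 10453 genes tested (0.0478%) differed between males and females in edgeR, 4 higher (0.0383%) and 1 lower (0.00957%) in males, and 4 of the 5 mark sex by chromosome. The Y-linked genes Kdm5d, Uty and Eif2s3y had 361, 850 and 679 UMIs over the male Drd3 nuclei and 0 over the female ones, which is at least 22.3-fold, 52.5-fold and 41.9-fold higher in males when 3 UMIs over the group are taken as the floor (edgeR adjusted p = 0.0446, 0.0123 and 0.0219). Xist, the RNA of X inactivation, had 1 UMI in male and 960 in female Drd3 nuclei, and its female over male ratio was 5181 with a counting interval of 928 to 204855 (edgeR adjusted p = 0.002). The fifth, Gm55122 on chromosome 13 (83723442 to 83729582), had 427 UMIs in male and 3 in female Drd3 nuclei, a male over female ratio of 26.4 with a counting interval of 8.96 to 128 (edgeR adjusted p = 0.0446). The gene lists differed with the software, at 33696 genes in each male library, 55357 in female 1 and 32285 in female 2. They thus differed between the females as well, and the part of this in the Gm55122 difference was not tested. The Y-linked Ddx3y, with 257 UMIs in male and 0 in female Drd3 nuclei, did not pass (edgeR adjusted p = 0.0978). At an unadjusted p under 0.05 there were 1137 genes, and DESeq2 called 44. Leaving out female 1 raised the edgeR calls to 980 and leaving out female 2 to 898, whereas leaving out male 1 gave 3. Each of these fits leaves a single library in 1 sex, whose spread is taken to be like that of the other sex, so their counts cannot be ranked against the 5.

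Whether the difference between Drd3 and other GABAergic nuclei itself differed between the sexes was tested with an interaction of class and sex, with library as a block. It called 31 of 17251 genes (0.18%), 10 (0.058%) with a higher and 21 (0.122%) with a lower log2 difference in males. A call here need not mean that the libraries of a sex were alike. Pde1c was called with log2 ratios of Drd3 over other GABAergic nuclei of -0.63 and -0.56 in males and 0.85 and -2.11 in females. Vmn1r209 was called on 1, 0, 0 and 28 UMIs in Drd3 nuclei. Ndst4, a heparan sulfate deacetylase and sulfotransferase, had the smallest adjusted p (2.64e-10 in edgeR). It was lower in Drd3 than in other GABAergic nuclei in males, at 90.5 and 99.5 CPM in Drd3 nuclei, against 145 and 142 CPM in other GABAergic nuclei, and higher in females, at 255 and 200 CPM in Drd3 nuclei, against 162 and 145 CPM in other GABAergic nuclei. The transcription factor gene Sox6 had the same pattern, at 185 and 149 CPM in male Drd3 nuclei, against 274 and 255 CPM in other GABAergic nuclei of males, and at 313 and 254 CPM in female Drd3 nuclei, against 290 and 183 CPM in other GABAergic nuclei of females. Ebf1 ran the other way, at 354 and 397 CPM in male Drd3 nuclei, against 194 and 182 CPM in other GABAergic nuclei of males, and at 419 and 248 CPM in female Drd3 nuclei, against 317 and 252 CPM in other GABAergic nuclei of females. Without male 1, and without male 2, edgeR called 0 genes here, with 350 and 341 at an unadjusted p under 0.05, and DESeq2 called 1 with all libraries. Drd3 nuclei with a Dnah5 or Vipr2 UMI were 42.9% and 48.7% in males and 26.7% and 36.4% in females. Other GABAergic nuclei with such a UMI were likewise more frequent in the deeper male libraries, at 17.5% and 15.2%, against 6.02% and 6.31% in females. The part of these shares, and of depth, in the differences between the sexes was not tested.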

How the data were processed

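Nuclei of the posterior substantia innominata of 2 male and 2 female libraries were analysed. The authors deposited, per the file headers, 1 matrix of whole-number UMI counts per gene and barcode for each library, written by Cell Ranger 9.0.1 (males), 7.0.0 (female 1) and 7.2.0 (female 2). The submitters' processing notes name Cell Ranger 6.0.1, Seurat 5 and mm10. The labels name Chromium versions 2 and 3 without saying which library used which. The 31899 genes listed in all libraries were kept, of which 31851 were found in GENCODE vM21 (GRCm38), the source of coordinates.

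Counts were summed per library and class and tested with the edgeR 4.0.16 quasi-likelihood test (TMM scaling, filterByExpr, library as a block, Benjamini-Hochberg adjustment at 0.05, two-sided; DESeq2 1.42.0 as an alternative). The male against female fit had no block. Folds are Drd3 over the other nuclei, or male over female. Named genes were those with the largest folds past the threshold in each direction (14 highest and 8 lowest against other GABAergic nuclei, 8 and 5 against the other sets) with all 4 libraries on 1 side and a mean of at least 20 CPM in the higher class, without predicted genes. In the interaction up to 5 and 5 were named, at the same level and without predicted genes. There both male log2 ratios had to lie above, or both below, the 2 female ones. All 5 genes called between the sexes were given. From each gene list, up to 4 called genes with the largest folds were named, with others where a sentence needed them, and a few are not reported here. No test was made of the genes in the rule, Dnah5 or Vipr2. The members and gene lists were chosen with earlier results of these data known. Automatic Scrublet calls (scanpy 1.11.5) marked 0.01% of the barcodes in each male library and 0% in the females and were not used, so doublets stayed in unless stated. On simulated counts with 2-fold and 4-fold changes, the comparison with other GABAergic nuclei recovered 35% and 81% of changed genes over 17274 genes, and the male against female comparison 13% and 68% over 10471 genes. The simulation gave every gene the same fixed spread, which was not estimated from these data. These rates therefore need not hold for the real counts. R 4.3.3 and Python 3.11.15 were used.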

Additional observations from a re-analysis of the deposited data

Results flagged for a closer look

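For the genes below, the log2 difference between Drd3 and other GABAergic nuclei differed between males and females by a test of that difference itself (edgeR, interaction of class and sex, Benjamini-Hochberg adjustment over 17251 genes). They are the 5 highest and 5 lowest that the rule for named genes took from the 31 genes called, and their values come from 2 libraries of each sex.

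Sex and depth cannot be told apart in these libraries. The difference was higher in males for Mfap3 (male minus female log2 difference 1.02 ± 0.25, adjusted p = 0.0352), Ebf1 (0.83 ± 0.15, 4.35e-05), Fbxo10 (0.83 ± 0.20, 0.0206), Serpini1 (0.73 ± 0.17, 0.0121) and Sgcd (0.61 ± 0.14, 0.0107). For Ebf1 the log2 ratio of Drd3 over other GABAergic nuclei was 0.87 and 1.12 in males and 0.40 and -0.02 in females. The sign of the ratio was opposite in the sexes for Serpini1, at 0.23 and 0.44 in males and -0.44 and -0.37 in females.

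It was lower in males for Chst9 (-1.32 ± 0.22, adjusted p = 1.40e-05), Sox5 (-1.13 ± 0.19, 1.40e-05), Ndst4 (-1.13 ± 0.15, 2.64e-10), Megf10 (-1.12 ± 0.28, 0.0467) and Sox6 (-0.99 ± 0.16, 1.99e-06). Ndst4 had log2 ratios of -0.67 and -0.51 in males and 0.65 and 0.46 in females, and Sox6 of -0.56 and -0.77 in males and 0.11 and 0.47 in females. Chst9 was low in the Drd3 nuclei with Dnah5 or Vipr2. Its ratios were 0.34 and -0.0027 in males and 0.93 and 1.82 in females. A UMI of those markers was seen in a larger share of male Drd3 nuclei, and also of male other GABAergic nuclei, in the deeper libraries. The part of these shares, and of depth, in the difference was not tested.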

How the results depend on the processing

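Genes were named by fold 61 times in the 4 comparisons with other nuclei, some of them in several comparisons, which share the Drd3 sums. These 61 results were recomputed under the alternatives, and 734 of 754 values kept their call and direction. The other 20 lost their call, all without the replicate block. Over these, the listed genes that rose or fell, and the genes named between the sexes and in the interaction, 82 of 242 lost their call in DESeq2, 82 of 243 without male 1, 77 of 243 without male 2 and 176 of 228 without the replicate block. Of the 31 interaction calls 0 were kept without male 1, 0 without male 2 and 1 in DESeq2, and of the 5 sex calls 2 were kept without glia-bearing nuclei. Counts of calls also moved. DESeq2 called 596 genes against other GABAergic, 287 against Drd1, 426 against Drd2 and 603 against Tshz1 Foxp2 nuclei, and 44 between the sexes and 1 in the interaction. Without the replicate block, that is without library as a term, 52, 87, 114 and 214 genes were called in the first 4 comparisons. Leaving out 1 library at a time gave 656 to 1221, 186 to 636, 431 to 845 and 546 to 1275 calls there, 3 to 980 between the sexes and 0 to 221 in the interaction. Between the sexes, median-ratio scaling and 3 or more Drd3 UMIs gave 3 calls each, no filter 385 and removal of glia-bearing nuclei 2. This last alternative was chosen after seeing the data. UMI-matched nuclei gave 20 interaction calls. Thinned to 2000 UMIs, the difference in share was -0.161 percentage points.

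Replicate numbers were not treated as pairs in the main fit. Deviations of the same number correlated at 0.0529 over 9491 genes. Counting noise in the small female sums can weaken such a correlation, so it cannot decide whether the numbers pair the samples. The fit with the replicate block called 13 genes between the sexes. Among listed genes, the log2 fold against other GABAergic nuclei turned for Slc1a3 without glia-bearing nuclei (-0.19), Vdr at 3 or more Drd3 UMIs (-0.0932) and Xist in DESeq2 (0.19); the cause was not tested. The planned comparison of Drd3 nuclei with and without Drd1 was not run, since fewer than 20 in each female library held Drd1. The 269330 UMIs of female 1 limit what its 30 nuclei can show for genes with few counts.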

Other observations

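The olfactory receptor genes Or2ag16, Or2ag17 and Or2ag18, chosen after their values were seen, neighbour each other on chromosome 7 (106749889 to 106808834, GRCm38). They entered the test through the Drd3 nuclei, so their UMIs are given as values only. Or2ag16 had 3, 4, 1 and 1 UMIs in Drd3 nuclei, against 5, 7, 1 and 0 UMIs in the far more numerous other GABAergic nuclei. Or2ag17 had 6, 7, 0 and 2 UMIs in Drd3 nuclei, against 29, 21, 5 and 3 UMIs in other GABAergic nuclei. Or2ag18 had 8, 7, 0 and 2 UMIs in Drd3 nuclei, against 19, 12, 1 and 2 UMIs in other GABAergic nuclei. The UMIs of Or2ag18 came from 6, 5, 0 and 1 Drd3 nuclei. In female 1 the last 2 of these genes had 0 UMIs in Drd3 nuclei. These genes belong to 1 receptor subfamily, so the split of reads among them is uncertain, and the counts are small.

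In the split of Drd3 nuclei by Dnah5 and Vipr2, the predicted gene Gm45538 stood at 21.4, 17.4, 10.4 and 39.5 CPM, unscaled, with a marker and at 0.655, 0, 0 and 0 CPM without. Il2rg, the common gamma chain of interleukin receptors, stood at 6.11, 9.94, 0 and 14.4 CPM with a marker and at 0.655, 0.985, 0 and 0 CPM without. Both were picked after seeing the values and were not tested. The peptide genes Tac2 and Nts followed the same split, at 36.6, 52.2, 73.0 and 61.1 CPM with a marker and 1.31, 6.90, 0 and 7.70 CPM without for Tac2, and at 58.8, 40.6, 93.8 and 53.9 CPM with and 9.17, 4.93, 11.5 and 17.96 CPM without for Nts.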
